A study of Homo sapiens with 22 samples.

Results

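The 33 genes described here make up the route from acetyl-CoA to cholesterol and to long-chain unsaturated fatty acids, together with the regulators of that route. They were taken by symbol from the 60669 genes listed in the larger deposited tables. By role they comprise 7 genes of the mevalonate steps, 11 of the squalene and sterol steps, 5 of the control by SREBP, 3 for sterol transport and response to oxysterols, and 7 of fatty acid synthesis. RNA-seq had been done on 22 libraries in 11 groups of 2, all from the breast cancer line MDA-MB-231, which is established, human and mesenchymal in character.

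The libraries came in 3 tables, and comparisons were made only inside a table. The knockdown table covered cells kept 2 to 3 months after lentiviral infection. Its groups were B5 (the label is not explained), shM3 (a label read as short hairpin RNA against METTL3, the catalytic subunit of the writer of the m6A mark on RNA), and 2 add-back groups on shM3, shM3_WT with METTL3-WT and shM3_CD with METTL3-CD. The DMSO table covered 3 days of DMSO, or of JQ1, Molib or I-BET151 at 0.5 µM. JQ1 and I-BET151 are known inhibitors of the BET proteins, which read acetylated histones. The CTRL table covered 3 days of CTRL, of JQ1 at 0.5 µM, and of a group labelled MW_JQ1, also at 0.5 µM JQ1, for which the meaning of MW is not given. All groups carry the genotype label WT. Since separate cultures are not named in the labels, the p-values speak only for the spread between libraries of the same group, which may be technical. That spread was pooled over all groups of a table.

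Cholesterol is built from acetyl-CoA through mevalonate, isoprenoid diphosphates, squalene and lanosterol, and fatty acids branch off at the level of acetyl-CoA. Both branches are driven by SREBP transcription factors, which stay in the endoplasmic reticulum bound to SCAP and INSIG while sterols are plentiful, and move to the Golgi and then the nucleus when sterols fall. For the cholesterol content of the cell, oxysterols act in the opposite sense through the nuclear receptor LXR, which raises genes of cholesterol export and of reduced uptake. Cultured tumour cells, which divide and make membrane, use both branches.

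SREBP binds a sterol regulatory element beside a CCAAT box, which is bound by NF-Y. Sequence upstream of the RefSeq start (GRCh38.p14, the build family of the deposited hg38 values) was available for 29 of the 33 members. The element as TCACNCCAC, searched on both strands of the 250 bases before the start, was found in 1 of 29 members (3.45%), SREBF2, against 0.875% of 27305 promoters. The CCAAT box, also on both strands, was found in 18 of 29 members (62.1%) against 33% of all promoters. The motifs could share only end letters, a match is a description of letters only, and no match says only that these letters are not in the window. Stretches of 160 bases, all on the plus strand, are printed for SREBF2, INSIG1, MSMO1, TM7SF2 and SCD, members on which the results below turn, with the matches in capitals.
SREBF2 (chr22:41832908-41833067): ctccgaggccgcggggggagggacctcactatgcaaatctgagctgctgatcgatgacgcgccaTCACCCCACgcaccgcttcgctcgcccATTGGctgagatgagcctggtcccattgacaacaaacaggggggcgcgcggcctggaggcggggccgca
INSIG1 (chr7:155297630-155297789): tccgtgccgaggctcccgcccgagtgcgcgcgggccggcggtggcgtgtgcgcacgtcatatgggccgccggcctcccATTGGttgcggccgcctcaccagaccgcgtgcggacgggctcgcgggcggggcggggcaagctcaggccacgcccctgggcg
MSMO1 (chr4:165327482-165327641): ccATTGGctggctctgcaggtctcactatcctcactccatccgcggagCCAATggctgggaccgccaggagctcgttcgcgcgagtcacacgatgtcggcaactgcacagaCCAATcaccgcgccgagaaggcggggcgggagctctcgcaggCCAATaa
TM7SF2 (chr11:65111712-65111871): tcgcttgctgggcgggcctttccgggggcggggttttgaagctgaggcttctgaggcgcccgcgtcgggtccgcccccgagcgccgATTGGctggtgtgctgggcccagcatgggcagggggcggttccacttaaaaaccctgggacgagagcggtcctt
SCD (chr10:100346983-100347142): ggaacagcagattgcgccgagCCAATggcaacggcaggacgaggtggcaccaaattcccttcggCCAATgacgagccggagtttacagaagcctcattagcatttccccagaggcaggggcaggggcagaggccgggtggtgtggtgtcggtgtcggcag
MSMO1 holds 4 CCAAT matches in this stretch (ATTGG is the same box read on the other strand), SCD holds 2, and SREBF2, INSIG1 and TM7SF2 hold 1 each. In SREBF2 the sterol element match lies just upstream of its CCAAT match. All 5 are protein-coding genes on the plus strand in the GENCODE annotation of hg38: SREBF2 (ENSG00000198911.12, chromosome 22, 41833079 to 41907308), INSIG1 (ENSG00000186480.13, chromosome 7, 155297776 to 155310235), MSMO1 (ENSG00000052802.13, chromosome 4, 165327623 to 165343160), TM7SF2 (ENSG00000149809.16, chromosome 11, 65111845 to 65116384) and SCD (ENSG00000099194.6, chromosome 10, 100347124 to 100364834).

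Values are FPKM, fragments scaled by gene length and library total, and a fold is the ratio of group means of FPKM. Differences on the log2 scale are differences of mean log2(FPKM + 1), a scale that shrinks the change of weakly expressed genes, and adjusted p values are from limma with Benjamini-Hochberg adjustment over all genes tested, passed under 0.05. Read depth is unknown for these libraries. FPKM sums were 426106 to 469180 per library. B5 replicate 2 differed, with 8234197 FPKM given to PIDD1 and 423171 to the rest together. For METTL3 itself the B5 libraries gave 20.1 and 23.8 FPKM. The shM3 libraries gave 4.39 and 4.80, those with METTL3-WT 312 and 311, and those with METTL3-CD 277 and 270.5. HEXIM1, a gene known to rise under BET inhibition, stood at 26.5 and 29.4 under DMSO, 73.8 and 76.7 under JQ1 and 72.9 and 69.6 under Molib, but at 10.3 and 6.37 in the libraries labelled I-BET151, which goes against that label. In the CTRL table the CTRL and JQ1 libraries were sparse. Of 6921 genes above 5 FPKM in all 16 libraries of the other tables, 240 to 886 were listed at 0 in each of these 4 libraries and none in MW_JQ1. VIM led the 5 mesenchymal markers in every library. The summed level of 5 adipocyte markers, cells rich in these enzymes, was at most 0.374 FPKM in the knockdown and DMSO tables. Lists of luminal, haematopoietic and hepatocyte markers each held an expressed gene. In B5, EPCAM was at 10.2 and 9.88 FPKM, CD14 at 16.8 and 6.71 and SERPINA1 at 37.6 and 25.3. In the libraries labelled I-BET151, SERPINA1 was at 67.3 and 71.5.

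In the knockdown table, the first question was how the route changed in cells with less METTL3. In shM3, 13 of the 33 members were higher than in B5 and 7 were lower, while 37.8% of the 14638 genes tested were called (17.9% higher and 19.9% lower). MVD, MSMO1 and NSDHL were among the genes that rose and SREBF1, MYLIP and the desaturase genes SCD and FADS1 among those that fell, and the members' median difference was 0.22 on the log2 scale against 0.00 for all genes. In these bulk libraries fewer cells expressing a gene and less RNA per cell cannot be told apart. Both shM3 libraries lay above both B5 libraries for 17 members and below them for 8, against 34.5% and 34.6% of all genes tested. Of the 20 calls, 13 held under every alternative tried. The other 7 (MVK, PMVK, IDI1, FDPS, HSD17B7, STARD4 and ACACA) were lost when shM3 replicate 2 was left out, with the count then at 13 and their adjusted p at 0.053 to 0.197.

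**Figure D1:**
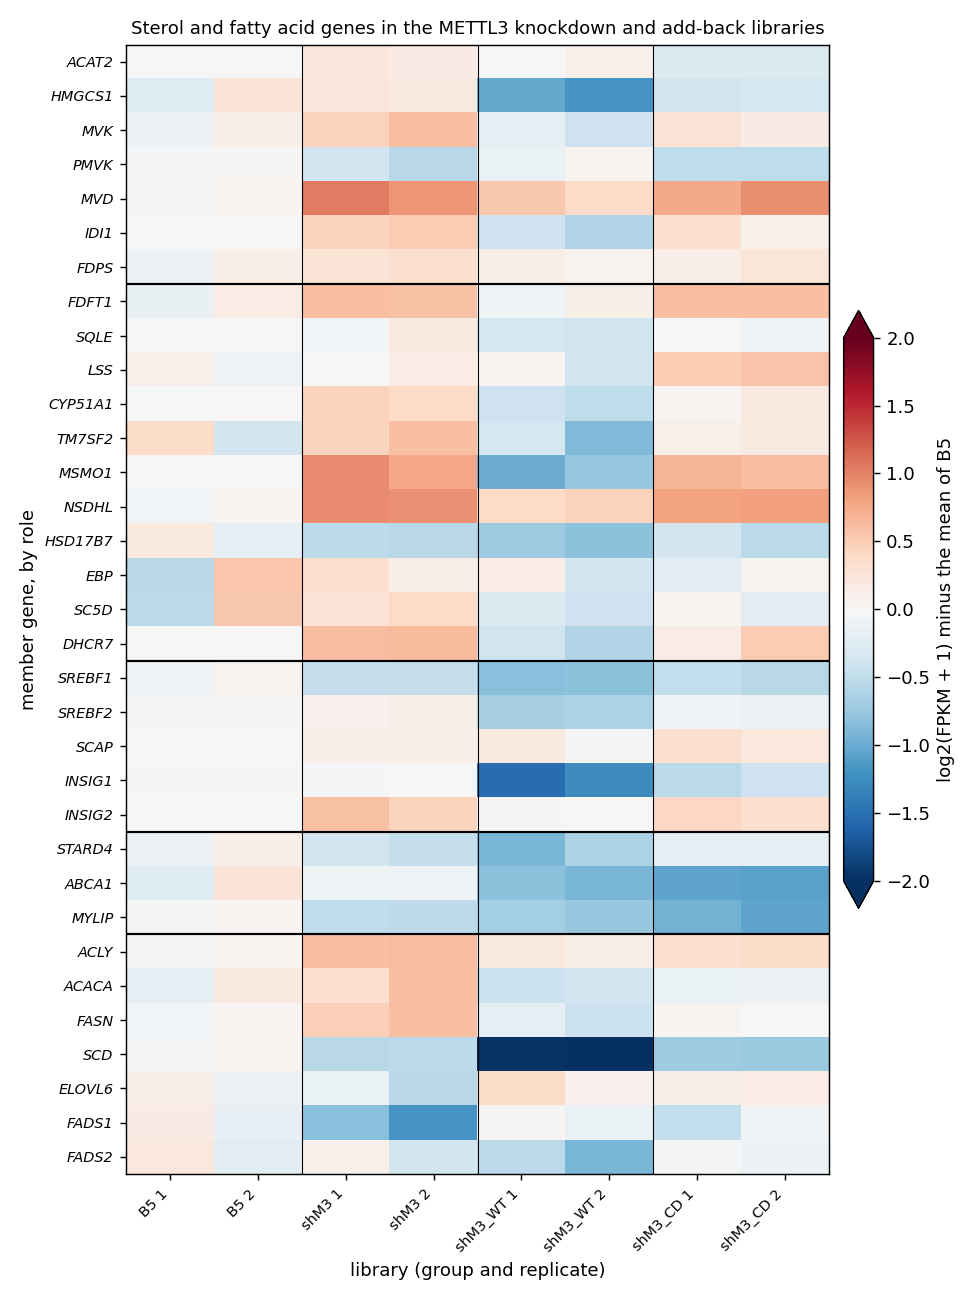
Heat map of the 33 members (rows, grouped by role with black lines, from mevalonate steps at the top to fatty acid synthesis at the bottom) in the 8 libraries of the knockdown table (columns). Colour gives log2(FPKM + 1) minus the mean of the B5 libraries, red above and blue below, saturating at 2. MVD, MSMO1 and NSDHL are the reddest in shM3, and INSIG1 and SCD the bluest in shM3_WT.

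Among the mevalonate steps 4 of 7 rose in shM3 and 1 fell, with a median of 0.30. MVD, the decarboxylase that makes isopentenyl diphosphate, was at 12.5 and 13.1 FPKM in B5 and at 27.5 and 24.5 in shM3. The shM3 libraries both lay well above B5, 2.03-fold by the means (log2 difference 0.97, SE 0.11, adjusted p = 0.00066). MVK, an earlier kinase of these steps, was at 14.5 and 17 in B5 and 22.0 and 24.2 in shM3. The isomerase gene IDI1 was at 20.1 and 19.7 against 27.6 and 28.7. PMVK, which adds the next phosphate after MVK, went the other way, with 36.3 and 37.1 in B5 and 27.8 and 24.7 in shM3. HMGCS1, the condensing enzyme that commits acetyl-CoA units to the route, was at 9.40 and 13.9 in B5 and at 13.7 and 13.3 in shM3, so that the groups overlapped.

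The squalene and sterol steps held 5 risers and 1 faller among 11, with a median of 0.43. MSMO1, the oxygenase that starts the removal of the methyl groups of lanosterol, was at 27.4 and 26.9 FPKM in B5 and 53.4 and 47.1 in shM3. That was a 1.85-fold rise with no overlap (log2 difference 0.86, SE 0.11, adjusted p = 0.0011). NSDHL, the dehydrogenase acting next on the same carbon, was at 16.9 and 18.4 in B5 and 35 and 34.2 in shM3 (1.96-fold, log2 difference 0.93, SE 0.08, adjusted p = 0.00023). DHCR7, the reductase of the last step to cholesterol, was at 27.6 and 27.7 in B5 and at 42.8 and 43.4 in shM3, a 1.56-fold rise (adjusted p = 0.009). FDFT1, which couples farnesyl units into squalene, and CYP51A1, the demethylase of lanosterol, rose 1.52-fold and 1.37-fold. CYP51A1 shares 79.4% of its exon bases with AC000120.2, a gene model on the same strand, so how reads were divided between them could change its values here and in the contrasts below. The neighbouring steps did not pass the test. SQLE, which oxidises squalene, was at 6.17 and 6.18 in B5 and at 5.93 and 7.17 in shM3, and LSS, which closes it into lanosterol, overlapped at 37.7 to 44.0 in B5 and 40.6 to 45.3 in shM3. EBP and SC5D could not be read against B5, since its libraries were at 22.4 and 49.9 for EBP and at 4.18 and 10.0 for SC5D.

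Among the SREBP regulators INSIG2, a sterol-sensing anchor, rose in shM3 from 5.32 and 5.32 FPKM to 8.49 and 7.58 (1.51-fold, adjusted p = 0.0073). SREBF1 was 1.41-fold lower, at 43.9 and 48.2 in B5 and 32.8 and 32.7 in shM3 (log2 difference -0.48, SE 0.08, adjusted p = 0.0033). SREBF2, the form most tied to cholesterol synthesis, was at 32.3 and 31.2 in B5 and at 33.7 and 34.7 in shM3. INSIG1, the other anchor and itself a target of SREBP, stood at 22.7 and 23.3 against 22.4 and 22.9. Neither SREBF2 nor INSIG1 passed the test, and the INSIG1 libraries overlapped.

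For sterol transport and LXR response, MYLIP, an LXR target that marks lipoprotein receptors for breakdown, fell 1.48-fold from 13.3 and 14 FPKM to 9.27 and 9.22 (log2 difference -0.52, SE 0.09, adjusted p = 0.0053). ABCA1, the cholesterol exporter, was at 7.16 and 10.7 in B5 and within that range in shM3. The fatty acid genes split. ACLY, which makes cytosolic acetyl-CoA, rose from 74.8 and 78.3 to 116 and 117 (1.53-fold, log2 difference 0.60, SE 0.07, adjusted p = 0.00074), and FASN, the synthase itself, from 61.8 and 66.2 to 89.7 and 97.9 (1.46-fold, adjusted p = 0.006). SCD, which puts the first double bond into saturated chains, fell from 82.3 and 86.3 to 56.9 and 58.1 (1.47-fold, log2 difference -0.54, SE 0.08, adjusted p = 0.002). FADS1, a desaturase of polyunsaturated chains, fell from 42.6 and 33.6 to 20.9 and 16.2 (2.06-fold, log2 difference -1.0, SE 0.19, adjusted p = 0.0061). Its neighbour FADS2, the desaturase before it, overlapped at 72.2 and 53.3 against 66.5 and 48.0. Of the mesenchymal markers, 4 of 4 tested fell in the same comparison. The summed FPKM of all 5 listed was 1473 and 1418 in B5 and 947 and 930.2 in shM3, and their part in these differences was not tested.

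The second question was what adding back METTL3 did. It was asked against shM3, so these contrasts share the shM3 libraries with the one above, and values are set side by side. In shM3_WT, 20 of 33 members were lower than in shM3 and 3 were higher, where 22.7% of all genes were called lower and 16.7% higher (39.4% in either direction). The members' median was -0.51 on the log2 scale against -0.08 for all genes. Both shM3_WT libraries lay below both shM3 libraries for 27 members, against 42.1% of all genes tested. Of the mesenchymal markers, 3 of 4 tested were higher in the same contrast. The summed FPKM of all 5 listed was 1719 and 1592 against 947 and 930.2, and their part was not tested. Of the 23 calls, 16 held under every alternative. MVD and PMVK were lost without shM3_WT replicate 2 (adjusted p = 0.0548 and 0.0653), as were TM7SF2 (0.0653), SQLE (0.089) and ABCA1 (0.0522), ELOVL6 and SQLE without shM3_WT replicate 1 (0.153 and 0.0613), and SREBF1 and MVD without shM3 replicate 1 (0.0516 and 0.0567). PMVK, SQLE, TM7SF2 and ELOVL6 were also lost without shM3 replicate 2 (0.0613 to 0.149).

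MSMO1 was at 13.1 and 15.7 FPKM in shM3_WT, below its 53.4 and 47.1 in shM3 and also below B5. The fall against shM3 was 3.48-fold (log2 difference -1.74, SE 0.11, adjusted p = 6.8e-05). SCD was at 20.7 and 18.7, 2.92-fold lower than shM3 (log2 difference -1.50, SE 0.08, adjusted p = 3.9e-05), and INSIG1 at 7.39 and 9.09, 2.74-fold lower (log2 difference -1.36, SE 0.11, adjusted p = 0.00017). For these 3 genes shM3_WT held the lowest libraries of the table, as it did for HMGCS1, IDI1, DHCR7, CYP51A1 and SREBF2. HMGCS1 fell to 5.13 and 4.52 (2.79-fold, adjusted p = 0.0011), IDI1 to 14.8 and 12.8 (2.04-fold, adjusted p = 0.00059), DHCR7 to 20.7 and 17.9 (2.24-fold, adjusted p = 0.00073) and CYP51A1 to 13.9 and 13.0 (1.93-fold, adjusted p = 0.00035). SREBF2 fell as well, from 33.7 and 34.7 in shM3 to 19.8 and 20.1 (1.72-fold, log2 difference -0.75, SE 0.07, adjusted p = 0.00035).

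In fatty acid synthesis FASN fell 1.82-fold to 56.0 and 47.0 FPKM, ACACA, the carboxylase that makes malonyl-CoA, 1.88-fold to 13.4 and 13.9, and ACLY 1.37-fold to 87.9 and 83.1. FADS1 was the exception among the calls that held under every alternative. It rose 1.96-fold over shM3 to 38.4 and 34.3 (log2 difference 0.94, SE 0.19, adjusted p = 0.0074), which overlapped its 42.6 and 33.6 in B5. Genes below B5 as well as below shM3 could be read from the direct contrast with B5, in which 15 members were lower and 2 higher (30% of all genes called). SCD was 4.27-fold lower in shM3_WT than in B5 (log2 difference -2.04, SE 0.08, adjusted p = 1.8e-05), INSIG1 2.79-fold lower (-1.38, SE 0.11, adjusted p = 0.00033) and SREBF1 1.81-fold lower (adjusted p = 0.00054). NSDHL was the reverse, still 1.37-fold above B5 at 23.5 and 24.7 (adjusted p = 0.007).

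**Figure D2:**
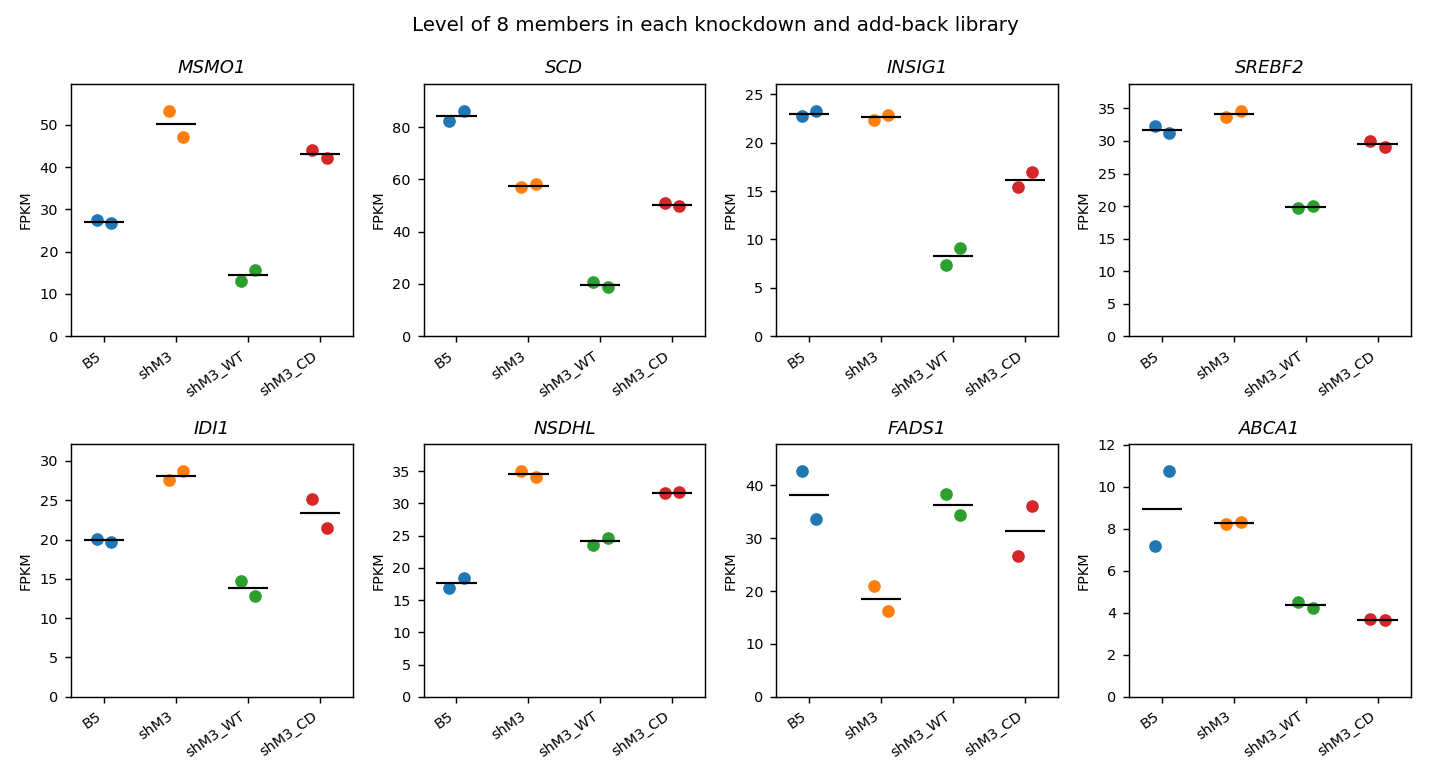
FPKM of 8 members in each library of the knockdown table, 1 panel per gene with a linear axis from 0; points are the 2 libraries of a group and the bar is their mean. MSMO1, SCD, INSIG1, SREBF2 and IDI1 are lowest in shM3_WT, NSDHL is lowest in B5, FADS1 is lowest in shM3, and ABCA1 is lowest in shM3_CD.

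With METTL3-CD added back, 6 of 33 members were lower than in shM3 and none higher, where 4.59% of all genes were called lower and 6.82% higher (11.4% in either direction). The median of the members was -0.20 against 0.01 for all genes. ABCA1 was at 8.21 and 8.30 FPKM in shM3 and 3.69 and 3.65 in shM3_CD, 2.25-fold lower (log2 difference -0.99, SE 0.17, adjusted p = 0.013). ACAT2, the thiolase that opens the sterol route, was at 70.8 and 67.4 in shM3 and at 49.9 and 48.8 in shM3_CD (1.4-fold lower, adjusted p = 0.0086). FASN, ACACA, INSIG1 and MYLIP made up the rest. These 6 calls did not survive the loss of a library: 0 members passed without shM3 replicate 1, shM3_CD replicate 1 or shM3_CD replicate 2, and 1 passed without shM3 replicate 2, with adjusted p of the lost calls from 0.0533 to 0.194.

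None of the 11 genes of the squalene and sterol steps passed the test between shM3_CD and shM3, and both shM3_CD libraries lay below both shM3 libraries for 7 of them, against 29% of all genes tested. MSMO1 was at 44.1 and 42.1 FPKM and NSDHL at 31.6 and 31.7, below both shM3 libraries of each gene. FDFT1 was at 35.8 and 35.8. LSS was higher, at 58.2 and 60.8 against 40.6 and 45.3 in shM3 (log2 difference 0.46, adjusted p = 0.099, but 0.0376 with these groups fitted alone). CYP51A1 was lower, at 19.6 and 21.6 against 26.6 and 25.3 (adjusted p = 0.056, but 0.0448 with a minimum of 5 FPKM and 0.0439 with equal medians). Set against B5, shM3_CD had 7 members higher and 7 lower (29.9% of all genes called). NSDHL was 1.80-fold above B5 (adjusted p = 0.0007), MVD 1.86-fold (adjusted p = 0.0018) and MSMO1 1.59-fold (adjusted p = 0.005), while MYLIP was 2.15-fold below (adjusted p = 0.00063) and ABCA1 2.44-fold below (adjusted p = 0.0042).

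The 2 add-backs, at like METTL3 levels of 311 to 312 and 270.5 to 277 FPKM, were compared directly. Relative to shM3_CD, shM3_WT had 17 members lower and 2 higher, where 15.7% of all genes were called lower and 10.2% higher (25.9% in either direction), and the members' median was -0.37 against -0.08. Both shM3_WT libraries lay below both shM3_CD libraries for 26 members, against 40.7% of all genes tested. The 7 calls that held under every alternative were all lower in shM3_WT: IDI1, CYP51A1, MSMO1, DHCR7, SREBF2, INSIG1 and SCD. Leaving out a library took the count to 12 without shM3_WT replicate 1, 10 without shM3_WT replicate 2, and 7 without either replicate of shM3_CD.

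MSMO1 showed the deepest of these 7, 2.99-fold lower with METTL3-WT (13.1 and 15.7 FPKM against 44.1 and 42.1, log2 difference -1.52, SE 0.11, adjusted p = 0.0005). SCD was 2.55-fold lower, at 20.7 and 18.7 against 50.9 and 49.8 (log2 difference -1.31, SE 0.08, adjusted p = 0.00033). INSIG1 was 1.97-fold lower (7.39 and 9.09 against 15.5 and 16.9, adjusted p = 0.0023) and DHCR7 1.83-fold lower (20.7 and 17.9 against 30.9 and 39.8, adjusted p = 0.0049). IDI1, CYP51A1 and SREBF2 were 1.69-fold, 1.53-fold and 1.48-fold lower, with adjusted p of 0.0044, 0.0044 and 0.0029. The groups did not overlap for any of the 7. ABCA1 and FADS1 did not pass, at log2 differences of 0.20 and 0.22 with 95% intervals from -0.19 to 0.59 and from -0.22 to 0.66. The mesenchymal markers moved with this contrast too: 3 of 4 tested were higher in shM3_WT. The summed FPKM of all 5 listed was 1719 and 1592 against 963 and 835 in shM3_CD, and their part was not tested.

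**Figure D3:**
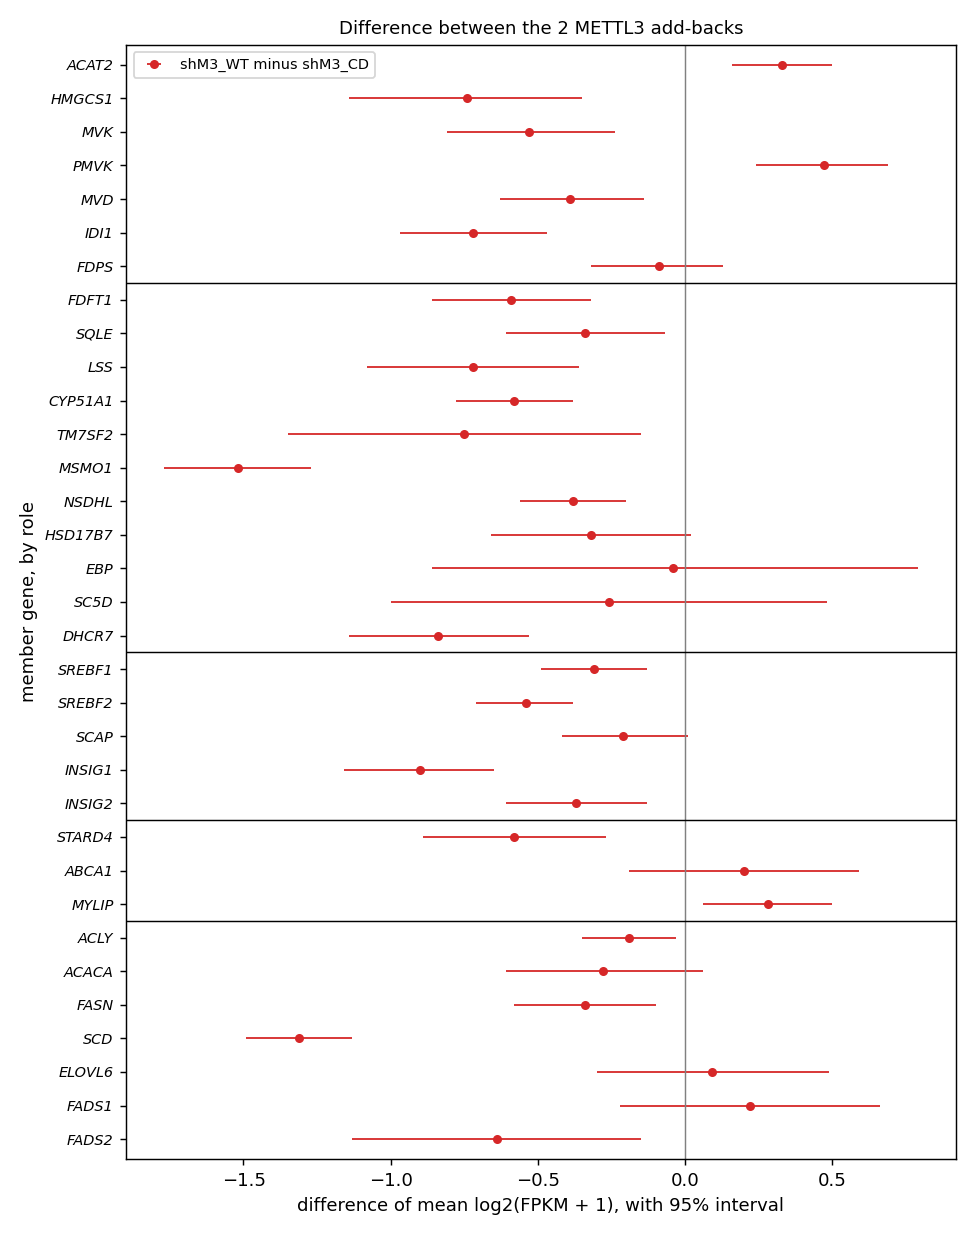
Difference of mean log2(FPKM + 1) between shM3_WT and shM3_CD for each of the 33 members, grouped by role; points are the estimates and bars the unadjusted 95% intervals from limma, with 0 marked by a grey line. Most points lie left of 0, MSMO1 at -1.52 and SCD at -1.31 farthest, and PMVK at 0.47 lies farthest right.

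In the DMSO table, the question was how the route responded to BET inhibition. The JQ1 and Molib contrasts share the DMSO libraries and are given side by side. With JQ1, 9 of 33 members were higher and 6 lower than in DMSO, where 14.5% of 14936 genes were called higher and 20.6% lower (35.1% in either direction). With Molib, 11 members were higher and 6 lower, against 14.8% and 20.5% (35.3% in either direction). Of 4 mesenchymal markers tested, 1 was higher and 2 were lower with each compound, and their part was not tested. The members' medians were 0.10 and 0.08, against -0.04 and -0.03 for all genes, since rises in the sterol steps stood beside falls at the entry and in the desaturases. For JQ1 9 of 15 calls held under every alternative and for Molib 6 of 17. The Molib count was 9 without DMSO replicate 1, 9 without DMSO replicate 2 and 7 without Molib replicate 2.

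The highest rise was in TM7SF2, a reductase of the sterol ring. It gave 13.2 and 12 FPKM under DMSO, 39.1 and 39.7 under JQ1 and 47.5 and 38.8 under Molib. Every drug-treated library of these groups was above DMSO, 3.14-fold for JQ1 (log2 difference 1.58, SE 0.16, adjusted p = 0.00046) and 3.44-fold for Molib (1.70, SE 0.16, adjusted p = 0.00034). SQLE gave 11.6 and 10.6 under DMSO, 24.1 and 19.2 under JQ1 and 18.7 and 24.0 under Molib. It rose 1.95-fold with JQ1 (adjusted p = 0.005) and 1.92-fold with Molib (adjusted p = 0.0054). SC5D, a desaturase of the sterol ring, gave 4.41 and 4.54 under DMSO, 9.10 and 8.62 under JQ1 and 6.66 and 8.24 under Molib (1.98-fold, adjusted p = 0.0026, and 1.66-fold, adjusted p = 0.0089). The Molib call for SC5D was lost without DMSO replicate 1 (adjusted p = 0.051) or Molib replicate 2 (0.0596).

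LSS rose with Molib from 21.9 and 26.7 to 48.8 and 57.4 FPKM (2.18-fold, log2 difference 1.1, SE 0.19, adjusted p = 0.0042) and was at 39.6 and 42.8 with JQ1 (1.70-fold, adjusted p = 0.02, but 0.0681 without JQ1 library a, 0.0974 without library b and 0.113 without DMSO replicate 1). EBP, the isomerase between these steps, went down, from 34.2 and 33.7 in DMSO to 18.7 and 20.2 with JQ1 (1.74-fold, adjusted p = 0.0032) and 24.6 and 22.0 with Molib (1.46-fold, adjusted p = 0.014, lost without either DMSO replicate or without Molib replicate 2, at 0.0663 to 0.0887). FDFT1 and DHCR7 passed with Molib in the fit with every library (1.34-fold and 1.61-fold, adjusted p = 0.021 and 0.012, but 0.117 and 0.0717 without Molib replicate 2 and 0.103 and 0.0728 without DMSO replicate 2). MSMO1 gave 17.3 and 18.6 under DMSO, 20.1 and 22.7 under JQ1 and 18.9 and 19.1 under Molib, and like CYP51A1 and NSDHL it passed in neither contrast.

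Along the mevalonate steps ACAT2 fell from 64.5 and 66.9 FPKM to 44.1 and 42.6 with JQ1 (1.52-fold, log2 difference -0.59, SE 0.09, adjusted p = 0.0025) and 49.6 and 47.5 with Molib (1.35-fold, adjusted p = 0.0088, but 0.0603 without DMSO replicate 2 and 0.0609 without Molib replicate 2). FDPS, which makes farnesyl diphosphate, gave 104 and 91.0 under DMSO, 55.1 and 58.5 under JQ1 and 67.9 and 58.0 under Molib. Its JQ1 call (adjusted p = 0.0069) was at 0.0502 without DMSO replicate 1, and its Molib call (0.015) at 0.0934 without that library and 0.0919 without Molib replicate 2. IDI1 gave 14.6 and 14.1 under DMSO, 49.7 and 27.5 under JQ1 and 54.9 and 26.4 under Molib. Its groups did not overlap, but the spread inside each drug group was wide, and both calls (adjusted p = 0.034 and 0.03) were lost without JQ1 library a (0.176), without Molib replicate 1 (0.146) or without either DMSO library (0.106 to 0.127).

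INSIG1 rose with Molib from 15.8 and 16.1 FPKM to 33.6 and 26.8 (1.89-fold, log2 difference 0.87, SE 0.14, adjusted p = 0.0036) and was at 24.3 and 23.8 with JQ1 (1.51-fold, adjusted p = 0.021, lost without any 1 of the 4 libraries at 0.0835 to 0.0935). SREBF2, at 31.5 and 29.7 in DMSO, and SREBF1, at 35 and 35.8, did not pass in either contrast. MYLIP rose in both, from 7.29 and 7.59 to 14.4 and 13.7 with JQ1 (1.89-fold, adjusted p = 0.00097) and 13.5 and 13.2 with Molib (1.80-fold, adjusted p = 0.0013). ABCA1 rose with JQ1 from 2.63 and 2.22 to 4.49 and 4.23 (1.80-fold, log2 difference 0.65, SE 0.12, adjusted p = 0.0069), and was at 2.43 and 2.46 with Molib, within the DMSO range.

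The fatty acid desaturases fell with both compounds. FADS1 gave 51.0 and 39.7 FPKM under DMSO, 16.6 and 15.6 under JQ1 and 19.0 and 17.9 under Molib. That was 2.82-fold lower with JQ1 (log2 difference -1.43, SE 0.22, adjusted p = 0.0028) and 2.46-fold lower with Molib (-1.25, SE 0.22, adjusted p = 0.0046). FADS2 gave 43.5 and 45.1 under DMSO, 21.9 and 17.5 under JQ1 (2.25-fold lower, adjusted p = 0.0054) and 28.4 and 22.1 under Molib (1.76-fold, adjusted p = 0.021, but 0.0789 and 0.094 without DMSO replicate 1 or 2 and 0.115 without Molib replicate 2). These neighbours lie on opposite strands of chromosome 11 and share 490 exon bases, and the use of strand in the counting is not given in the sources used here. SCD was lower by 1.30-fold and 1.36-fold (adjusted p = 0.027 and 0.015), calls lost without DMSO replicate 1 (0.15 and 0.0965), without either library of the compound (0.0591 to 0.148) and, for JQ1, without DMSO replicate 2 (0.0602). FASN was 1.23-fold and 1.24-fold higher, calls lost without any 1 of the libraries compared (0.0932 to 0.16), and ACLY did not pass.

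**Figure D4:**
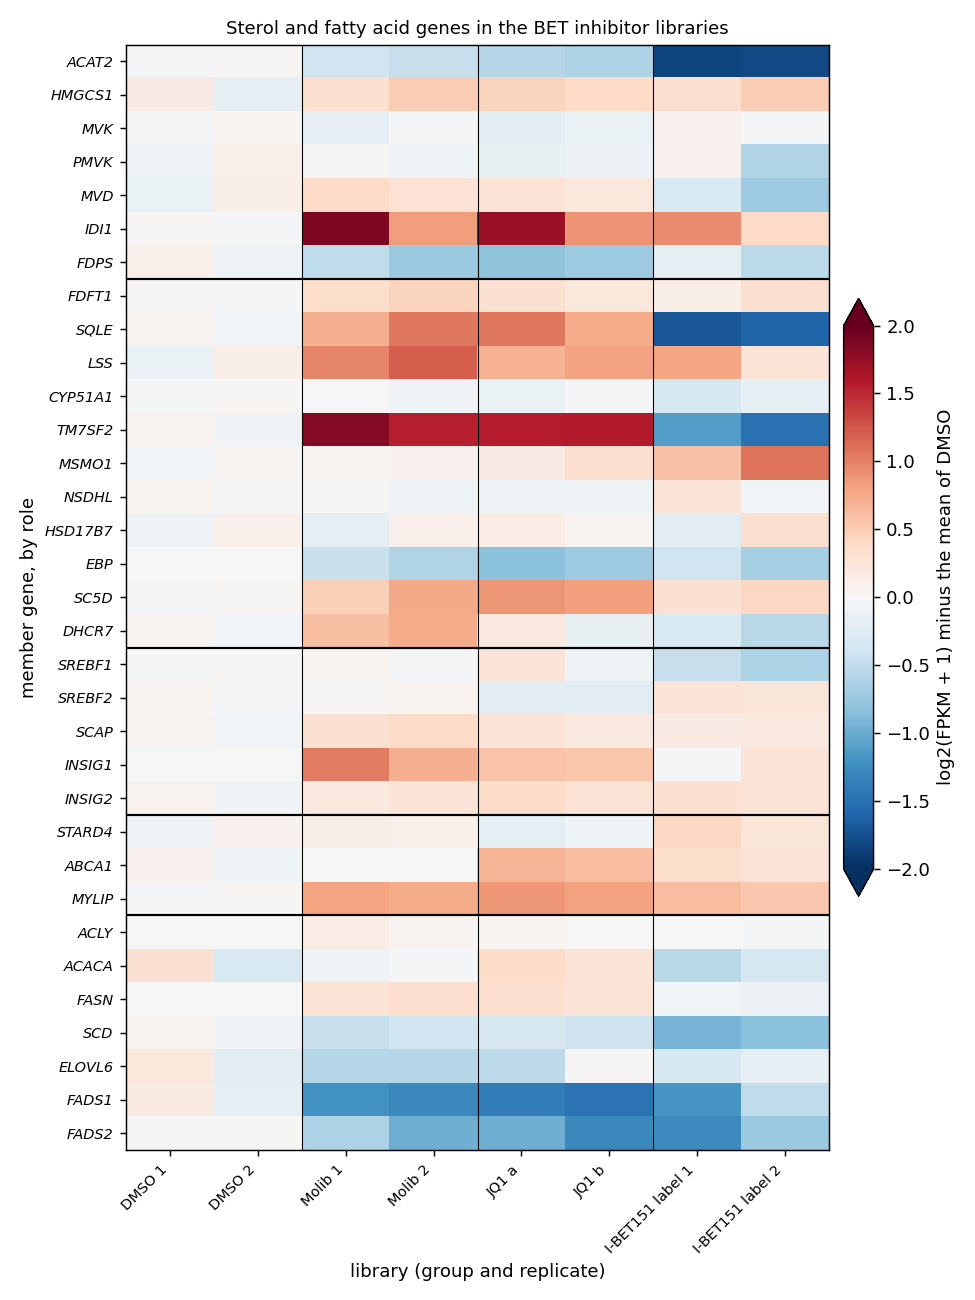
Heat map of the 33 members (rows, grouped by role with black lines) in the 8 libraries of the DMSO table (columns). Colour gives log2(FPKM + 1) minus the mean of the DMSO libraries, red above and blue below, saturating at 2. TM7SF2, IDI1 and SQLE are red in JQ1 and Molib and FADS1 and FADS2 blue, and ACAT2, SQLE and TM7SF2 are the bluest in the libraries labelled I-BET151.

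JQ1 and Molib, at the same dose and time, were compared directly. None of the 33 members passed, as none of 14936 genes did in limma (0% called), and 3 of 33 members had an unadjusted p under 0.05, against 8.22% of all genes. ABCA1 was 1.78-fold lower with Molib (log2 difference -0.64, 95% interval -0.93 to -0.35, unadjusted p = 0.0011, adjusted p = 0.43) and DHCR7 1.58-fold higher (0.65, interval 0.30 to 1.00, unadjusted p = 0.0029, adjusted p = 0.49), at 43.8 and 48.3 against 32.8 and 25.5 FPKM. SREBF2 was the third, at a difference of 0.26. For TM7SF2 the interval of the difference ran from -0.24 to 0.48, for SQLE from -0.39 to 0.35 and for FADS1 from -0.33 to 0.69, so differences of that size between the compounds cannot be told from 0 here.

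The libraries labelled I-BET151, also at 0.5 µM for 3 days, had 2 members higher and 9 lower than DMSO, where 13.9% of all genes were called higher and 14.1% lower (28% in either direction). This contrast uses the same DMSO libraries again. ACAT2 was at 17.6 and 18.1 FPKM against 64.5 and 66.9, 3.67-fold lower (log2 difference -1.82, SE 0.09, adjusted p = 4.1e-05). SQLE was at 2.70 and 2.96 against 11.6 and 10.6 (3.92-fold lower, -1.66, SE 0.16, adjusted p = 0.00065), and TM7SF2 at 5.27 and 3.83 against 13.2 and 12 (2.76-fold lower, adjusted p = 0.0015). These were the lowest libraries of the table for all 3 genes. SCD was 1.87-fold lower at 27.7 and 29.9 (adjusted p = 0.0012), and MYLIP 1.56-fold higher at 11.9 and 11.3 (adjusted p = 0.0057).

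These 5 calls held under every alternative, and the other 6 did not. MSMO1, 1.85-fold higher at 27.5 and 39.1 FPKM (adjusted p = 0.0097), was lost without DMSO replicate 1 (0.0625), and FADS2, SREBF1, FADS1, EBP and MVD were lost without either DMSO library (0.0545 to 0.234). SREBF1 and MVD were also lost without I-BET151 replicate 2 (0.0719 and 0.15) and FADS1 without I-BET151 replicate 1 (0.0599). The count was 5 without DMSO replicate 1 and 7 without DMSO replicate 2. Of 4 mesenchymal markers tested in this contrast, VIM and CAV1 were lower and CD44 and AXL higher. The sum of all 5 listed was 1089 and 1232 FPKM against 1800.3 and 1823 in DMSO, and their part was not tested.

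Set directly against JQ1, the libraries labelled I-BET151 had 3 members higher and 11 lower (44.6% of all genes called), where 24.6% were higher and 20.1% lower, and against Molib 1 higher and 10 lower (43.5%, with 23.6% higher and 19.9% lower). TM7SF2 was 8.67-fold below JQ1 (log2 difference -2.88, SE 0.16, adjusted p = 2.7e-05) and 9.49-fold below Molib (-3.0, SE 0.16, adjusted p = 2.6e-05). SQLE was 7.65-fold and 7.53-fold below them (adjusted p = 4.1e-05 and 4.3e-05), and ACAT2 2.42-fold and 2.71-fold (7.1e-05 and 4.4e-05). The count against JQ1 was 7 without JQ1 library a. ACAT2 shares 26.5% of its exon bases with SOD2 and 33.9% with SOD2-OT1 on the opposite strand, so reads of these genes could mix if strand was not used.

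**Figure D5:**
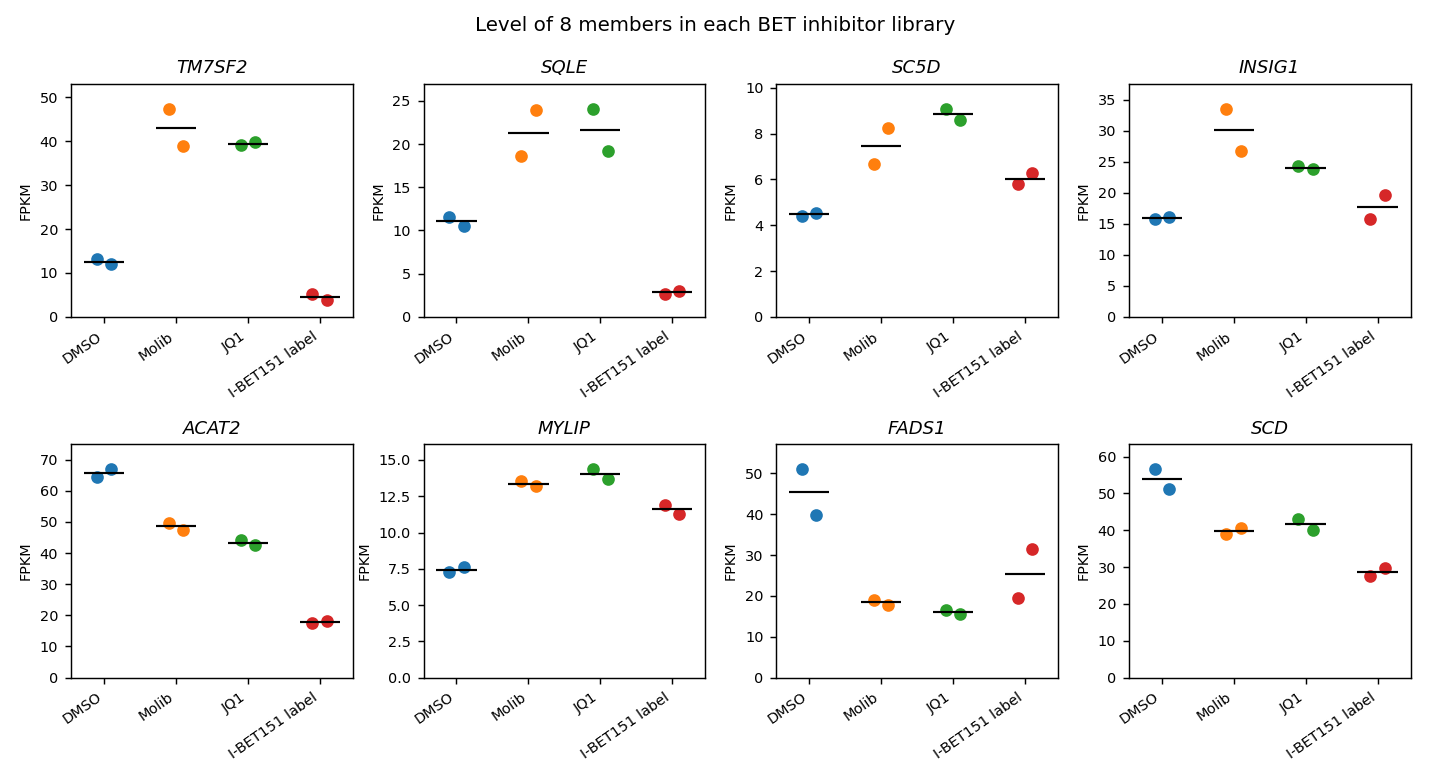
FPKM of 8 members in each library of the DMSO table, 1 panel per gene with a linear axis from 0; points are the 2 libraries of a group and the bar is their mean. TM7SF2 and SQLE are high in Molib and JQ1 and lowest in the libraries labelled I-BET151, FADS1 is lowest in JQ1, and the FADS1 libraries labelled I-BET151, at 19.4 and 31.4, lie apart from each other.

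In the CTRL table, 32 of the 33 members were listed (CYP51A1 was not analysed there). Between JQ1 and CTRL no member passed in limma, as no gene of 13261 did (0% called), while 9 of 32 members had an unadjusted p under 0.05, against 15.4% of all genes. The members' median difference was -0.65 on the log2 scale, against 0.00 for all genes. CTRL replicates 1 and 2 had 4 and 1 members listed at 0, and JQ1 replicates 1 and 2 had 1 and 5, against 0 in MW_JQ1. SCD and INSIG1 are named here as members whose libraries agreed inside each group, but they were not the only such members. ACACA was higher in JQ1, at 12.5 and 17.4 FPKM in CTRL, 26.0 and 32.6 in JQ1 and 10.7 and 12.1 in MW_JQ1. DHCR7 was at 38.9 and 48.7 in CTRL, 13.3 and 13.8 in JQ1 and 27.0 and 36.9 in MW_JQ1. Libraries of some other members disagreed, such as HMGCS1 at 2.85 and 25.4 FPKM in CTRL and FDFT1 at 7.09 and 61.7 in JQ1. SCD was at 253 and 256 FPKM in CTRL, 120.1 and 133 in JQ1 and 79.8 and 79.8 in MW_JQ1, and INSIG1 at 88.6 and 109, 67.8 and 62.9, and 27.7 and 26.2. For both genes the 3 groups did not overlap, but the share of all genes separated in this way is not given here. FADS1 was at 83.8 and 67.2 in CTRL, 24.3 and 10.7 in JQ1 and 20.1 and 20.9 in MW_JQ1, so that both JQ1-treated groups lay below CTRL (unadjusted p = 0.0052 for JQ1, adjusted p = 0.13). SCD and FADS1 were lower with JQ1 in the DMSO table as well. INSIG1 and ABCA1 went the other way there, higher with JQ1 than with DMSO. In the CTRL table ABCA1 was at 11.6 and 10.8 in CTRL and at 5.59 and 7.02 in JQ1.

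TM7SF2 and SQLE could not be compared with the DMSO table in this way. TM7SF2 was listed at 0 and at 19.5 FPKM in CTRL, at 61.5 and 26.9 in JQ1 and at 18.3 and 23.7 in MW_JQ1, and SQLE at 12.3 and 11.1, at 10.5 and 0, and at 5.10 and 4.11. For MW_JQ1 minus JQ1 1 member was called, INSIG1, 2.42-fold lower (log2 difference -1.25, SE 0.22, adjusted p = 0.022), where 15.2% of all genes were called, 1.62% lower and 13.5% higher, and their median difference was 0.75. That call was lost without JQ1 replicate 2 (0.0563) or without MW_JQ1 replicate 1 or 2 (0.82 and 0.85), and the count rose to 5 without JQ1 replicate 1. For MW_JQ1 minus CTRL, SCD was 3.19-fold lower (adjusted p = 0.0023), INSIG1 3.67-fold lower (adjusted p = 0.0054), and MVD, listed at 0 in both CTRL libraries, was at 15.4 and 21.1, against 15.1% of all genes called, 13.3% higher and 1.88% lower, and a median of 0.61. All 3 were lost without MW_JQ1 replicate 1 (adjusted p from 0.383 to 0.635) or replicate 2 (0.369 to 0.719), and the count was 6 without CTRL replicate 2. METTL3 was at 212 and 234 FPKM in MW_JQ1, at 31.2 and 1.18 in CTRL and at 11.8 and 0 in JQ1. The contrast therefore also differs in METTL3, in label and in sparseness, which cannot be told apart.

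Genes next to the 33 on the same routes moved in both directions. Among 12 others of sterol synthesis and trafficking, 3 were higher and 5 lower in shM3 than in B5 (66.7% called, against 37.8% of all genes). In shM3_WT against shM3, 2 were higher and 5 lower (58.3%, against 39.4%). ERG28, a scaffold for the demethylating enzymes that include MSMO1 and NSDHL, was 0.325 times its B5 level in shM3 (adjusted p = 0.0001) and 2.54-fold higher in shM3_WT than in shM3 (adjusted p = 0.00019). CH25H, which makes an oxysterol that holds SREBP back, was at a mean of 10.6 FPKM in B5, 5.53 in shM3 and 0.664 in shM3_WT (adjusted p = 0.0023 and 7e-05). In JQ1 these genes gave 1 higher and 3 lower of 11 tested, and in Molib 1 and 1. That was 36.4% and 18.2% called, against 35.1% and 35.3% of all genes.

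Of 8 other genes of the LXR axis, 4 were lower in shM3 than in B5 and none higher (50% called, against 37.8% of all genes). Among them ABCG1, a sterol exporter, was 0.276 times its B5 level (adjusted p = 0.00099). NR1H3, which encodes an LXR, was 0.456 times its DMSO level in JQ1 (adjusted p = 0.001) and 0.442 times in Molib (0.00084). It was the 1 lower gene of 8 in each. In JQ1 12.5% of the 8 were called and in Molib 25%, against 35.1% and 35.3% of all genes. Of 22 other genes tested of fatty acid and glycerolipid synthesis, 5 were higher and 1 lower with JQ1 and 7 and 1 with Molib, among them SLC25A1, the citrate carrier, at 1.79-fold with JQ1 (adjusted p = 0.0034) and DGAT1, which makes triglyceride, at 2.1-fold and 2.35-fold (0.004 and 0.0021). With JQ1 27.3% of the 22 were called and with Molib 36.4%, against 35.1% and 35.3% of all genes. In shM3 none of the 22 was higher and 4 were lower (18.2%, against 37.8%). Of 9 tested genes of fatty acid oxidation, 1 was higher and 2 were lower in shM3 than in B5 (33.3%, against 37.8% of all genes). With JQ1 2 were higher (22.2%, against 35.1%) and with Molib 3 (33.3%, against 35.3%), and none was lower with either compound. HADHB was 2.51-fold higher in shM3 than in B5 (adjusted p = 4.5e-05) and 1.61-fold and 1.69-fold higher with JQ1 and Molib than in DMSO (0.0033 and 0.0021). Of 6 other genes of the SREBP machinery, 1 passed in shM3 (MBTPS2, lower), 1 in each of JQ1 and Molib (RNF139, higher), and 2 in shM3_WT against shM3 (both higher). In each of shM3, JQ1 and Molib 16.7% of the 6 were called, against 37.8%, 35.1% and 35.3% of all genes. In shM3_WT against shM3 33.3% were, against 39.4%. In the libraries labelled I-BET151, 3 of the 6 were higher than in DMSO and 1 was lower (66.7%, against 28%).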

How the data were processed

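The authors deposited 3 tables of FPKM. FPKM stands in the name of 1 table, and the other 2 were read as FPKM from their format and library sums. Per the submitters' processing notes, the tools were HISAT2 2.1.0, Cufflinks 2.2.1 and CASAVA 1.4, on hg38. Annotation, options and strand handling were not given in the sources used here. Columns of JQ1 in the DMSO table carry names shared with JQ1 of the CTRL table, were assigned by elimination and are called libraries a and b. The deposited CTRL table also has the authors' own test columns, which were not used (a mean signal, a log2 fold change and p-values, per the file headers). All per-sample columns were used (0 left over).

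The 33 members, the other gene lists and the tests were chosen with earlier results of these data known. Genes reaching 1 FPKM in 2 or more libraries entered the test. In R 4.3.3, limma 3.58.1 fitted log2(FPKM + 1) for each table at once (lmFit, contrasts and eBayes with a trend), and p-values were adjusted by Benjamini-Hochberg over all genes tested, with a threshold of 0.05. All 33 members passed the filter in the knockdown and DMSO tables and 32 in the CTRL table. There were 15 comparisons of groups of 2. The script was tested on simulated data. Any member may be named, and genes of other lists are among the 3 of smallest adjusted p of their list and comparison, except where a gene is followed from 1 comparison to the next, chosen after its values were seen. Promoters are those of RefSeq on GRCh38.p14, gene overlaps those of GENCODE on hg38. Figures were drawn with matplotlib 3.10.9 and pandas 2.3.3 in Python 3.11.15.

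Alternatives were a replicate block, the groups of a contrast alone, pseudocounts of 0.1 and 5, no filter, a minimum of 5 FPKM, hand-computed TMM factors (trims of 30% and 5%), equal medians, leaving out each library, and, added after HEXIM1 was seen, leaving out the libraries labelled I-BET151. A group left with 1 library was assumed to vary like the other groups.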

Additional observations from a re-analysis of the deposited data

How the results depend on the processing

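Leaving out 1 library at a time gave 13 to 21 called members for shM3 minus B5 (20 with all libraries), 0 to 1 for shM3_CD minus shM3 (6), 7 to 12 for shM3_WT minus shM3_CD (19), 7 to 12 for Molib minus DMSO (17), 5 to 12 for I-BET151 minus DMSO (11), 7 to 16 for I-BET151 minus JQ1 (14), 0 to 5 for MW_JQ1 minus JQ1 (1) and 0 to 6 for MW_JQ1 minus CTRL (3). The count for MW_JQ1 minus JQ1 was 4 with the groups of the contrast alone, 2 with TMM factors and 3 with equal medians, and that for MW_JQ1 minus CTRL was 6 with the groups alone; equal medians turned the members' median from 0.56 to -0.16 in the first and from 0.28 to -0.27 in the second. The cause was not tested. Replicate numbers did not pair the libraries (correlations of deviations between -0.123 and 0.042), and the replicate block gave 0 called members for MW_JQ1 minus JQ1 and 13 for Molib minus DMSO, with the other counts within 1.5 times; no paired fit was possible with JQ1 of the DMSO table, whose columns carry no number. FASN changed sign in Molib minus JQ1 of the DMSO table, where it did not pass, to -0.01 with TMM factors and to -0.02 without Molib replicate 2 and without JQ1 library b, with a range of -0.02 to 0.04 over the libraries left out, and in MW_JQ1 minus JQ1 to 0.17 without JQ1 replicate 1, with a range of -0.41 to 0.17. Of all 171 member calls, 90 held under every alternative. A set of 95 results took at most 8 members a comparison. They were called members of smallest adjusted p whose libraries did not overlap or, where fewer than 2 qualified, the 2 of highest mean. Of their 1140 values under alternatives, 1087 kept direction and side of the threshold, 47 lost the threshold, 2 gained it and 4 changed sign. Most were picked as the clearest calls of these same data, so this does not carry over to the other calls. Without the libraries labelled I-BET151, JQ1 minus DMSO had 17 called members and Molib minus DMSO 18. Depth is unknown, and 2 libraries a group limit the precision of all values.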
